A study of Arabidopsis thaliana with 24 samples.

Results

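Of 32399 loci listed for Arabidopsis thaliana embryos, 5 had RNA in both daughters of the zygote and next to none in either part of the embryo at 32 cells. They are PLA2-ALPHA (AT2G06925), a secreted phospholipase A2, AT3G14250, a RING/U-box protein, FOA1 (AT3G17320), an F-box protein, AT3G23860, annotated as a GTP-binding protein-like protein, and AT4G26485, annotated as a methyltransferase small domain protein. A locus was taken when its median over the 6 libraries of a cell type was at least 20 FPKM in the apical cell and in the basal cell and under 1 FPKM in the embryo proper and in the suspensor. FPKM counts fragments scaled to transcript length and to the mapped fragments of a library, and is thus a level per length. The locus AT5G10220 (ANN6) and the egg cell genes EC1.1, EC1.2, EC1.3, EC1.4 and EC1.5 were set aside beforehand, and none of these 6 meets the thresholds. The members were thus chosen by the FPKM values that compare the embryo of 32 cells with that of 2 cells, and differences between those stages are described without a test.

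The libraries come from reciprocal crosses of the accessions Col and Ler, and the labels name no mutant, transgene or treatment. The 8 groups of 3 libraries are the embryo proper and the suspensor of embryos of 32 cells and the apical cell and the basal cell of embryos of 2 cells, each from both directions of the cross, Col as mother and Ler as father or the reverse. The series text names a stage of 1 cell where the sample labels name 2-celled embryos, and the labels are followed here. All plants grew in a greenhouse with long days, and each library was amplified with a SMART-Seq kit made for very little RNA. The series text calls the replicates independent, but the labels tie them to no plants, so p-values measure the spread between these libraries, which may be technical. Each cell type is RNA pooled over cells whose number is not given in the sources used here, and fewer cells of a type and less RNA per cell cannot be told apart.

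The zygote of Arabidopsis divides unequally. Its small apical daughter founds the embryo proper, and its large basal daughter founds the suspensor, the file of cells that holds and feeds the embryo. The first embryo cells are known to hold RNA that the egg cell stored beside RNA made after fertilisation, and the FPKM values of these libraries do not tell such RNAs apart. Secreted phospholipases A2 cut membrane phospholipids into a free fatty acid and a lysophospholipid. RING and U-box proteins and F-box proteins are parts of ubiquitin ligases, which mark other proteins for removal by the proteasome. GTP-binding proteins act as switches in processes such as ribosome assembly, and methyltransferases move methyl groups from S-adenosylmethionine to RNA, protein or small molecules.

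Promoters are shown for the 3 loci on which the results turn most: AT4G26485, which differed between the daughters, AT3G23860, which differed between the crosses, and AT3G14250, whose lower daughter median was the highest of the 5. Each is the 250 bases before the annotated gene start, read from the RefSeq TAIR10.1 genome on the strand of the gene and printed in lower case. Capitals mark the motifs searched on both strands: CCAAT (the nuclear factor Y box), TTGAC (the W-box core), CACGTG (the G-box), CATGCA (the RY core) and TATAAA (the TATA box). TTTATA in capitals is the TATA box read on the opposite strand.
AT4G26485, chr4:13378505-13378754, minus strand: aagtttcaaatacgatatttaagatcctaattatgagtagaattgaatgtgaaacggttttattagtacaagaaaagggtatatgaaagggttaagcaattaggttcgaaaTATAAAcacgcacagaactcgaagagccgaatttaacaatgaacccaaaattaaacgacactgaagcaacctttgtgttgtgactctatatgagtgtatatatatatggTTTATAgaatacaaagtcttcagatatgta
AT3G23860, chr3:8619286-8619535, minus strand: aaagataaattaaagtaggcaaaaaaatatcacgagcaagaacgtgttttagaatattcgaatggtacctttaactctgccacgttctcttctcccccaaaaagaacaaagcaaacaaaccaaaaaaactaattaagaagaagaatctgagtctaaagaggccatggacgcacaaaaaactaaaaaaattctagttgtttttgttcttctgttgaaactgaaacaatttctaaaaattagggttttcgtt
AT3G14250, chr3:4746959-4747208, minus strand: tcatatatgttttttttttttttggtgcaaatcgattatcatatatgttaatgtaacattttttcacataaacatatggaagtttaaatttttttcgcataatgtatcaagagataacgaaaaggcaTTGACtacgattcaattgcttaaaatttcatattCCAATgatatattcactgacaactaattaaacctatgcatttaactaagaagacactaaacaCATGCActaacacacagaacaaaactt

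The 3 windows hold different motifs. In AT4G26485 the TATA box began 139 bases before the gene start, and on the opposite strand it lay 30 bases before it. AT3G14250 held the nuclear factor Y box 89, the W-box core 123 and the RY core 27 bases before the start. AT3G23860 held none of the 5 motifs, and its window overlaps the gene AT3G23870. That window lies directly before 1 annotated transcript only, as the others start 1545 and 1640 bases further on. PLA2-ALPHA held the nuclear factor Y box 220 bases before the start, and FOA1 held a W-box core at 123 and a TATA box at 105 bases.

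Among the 5 promoters, no motif occurred in more than 2. The nuclear factor Y box was in 2 of 5, against 46.1% of the promoters of 26711 protein-coding loci. The W-box core was in 2 of 5, against 45%, and the TATA box in 2 of 5, against 47.7%. The RY core was in 1 of 5, against 8.51%, and the G-box in 0 of 5, against 6.58%. A match of letters is a description of the sequence and not evidence that a factor binds there. The model of FOA1 and that of AT4G26485 hold coding bases only, so their windows may hold transcribed bases.

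The loci share little that the thresholds did not use. All 5 lie on the minus strand, 3 of them on chromosome 3, where the starts of neighbours in the list are 1170 and 2701 kb apart. PLA2-ALPHA is at chr2:2842020-2843386, AT3G14250 at chr3:4745926-4746958, FOA1 at chr3:5915427-5916656, AT3G23860 at chr3:8616804-8619285 and AT4G26485 at chr4:13377685-13378504, all in TAIR10.1. Their coding sequences are 447 to 1230 bases long, with a median of 732 bases against 1065 over 26712 protein-coding loci. FOA1 has a single exon, as does the longest transcript of AT3G23860, against 20.6% of protein-coding loci. AT3G14250 carries a note of expression in the egg cell in the annotation, which 32 protein-coding loci (0.12%) do. No 2 of the 5 share a protein name.

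At 32 cells the 5 loci were almost silent. Of their 60 values in embryo proper and suspensor libraries, 36 were listed at 0 and 6 reached 1 FPKM. Of their 60 values in apical and basal cell libraries, 47 reached 20 FPKM. In 4 of the 5 loci every library of the 32-celled stage lay below every library of the 2-celled stage, which holds for 0.432% of all listed loci. The exception was FOA1, which was listed at 0 in 1 basal cell library. The thresholds used these same values and favour such a separation, so the share among the 5 is not a test. No fold is given between the stages because medians at 32 cells were at or near 0.

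**Figure D1:**
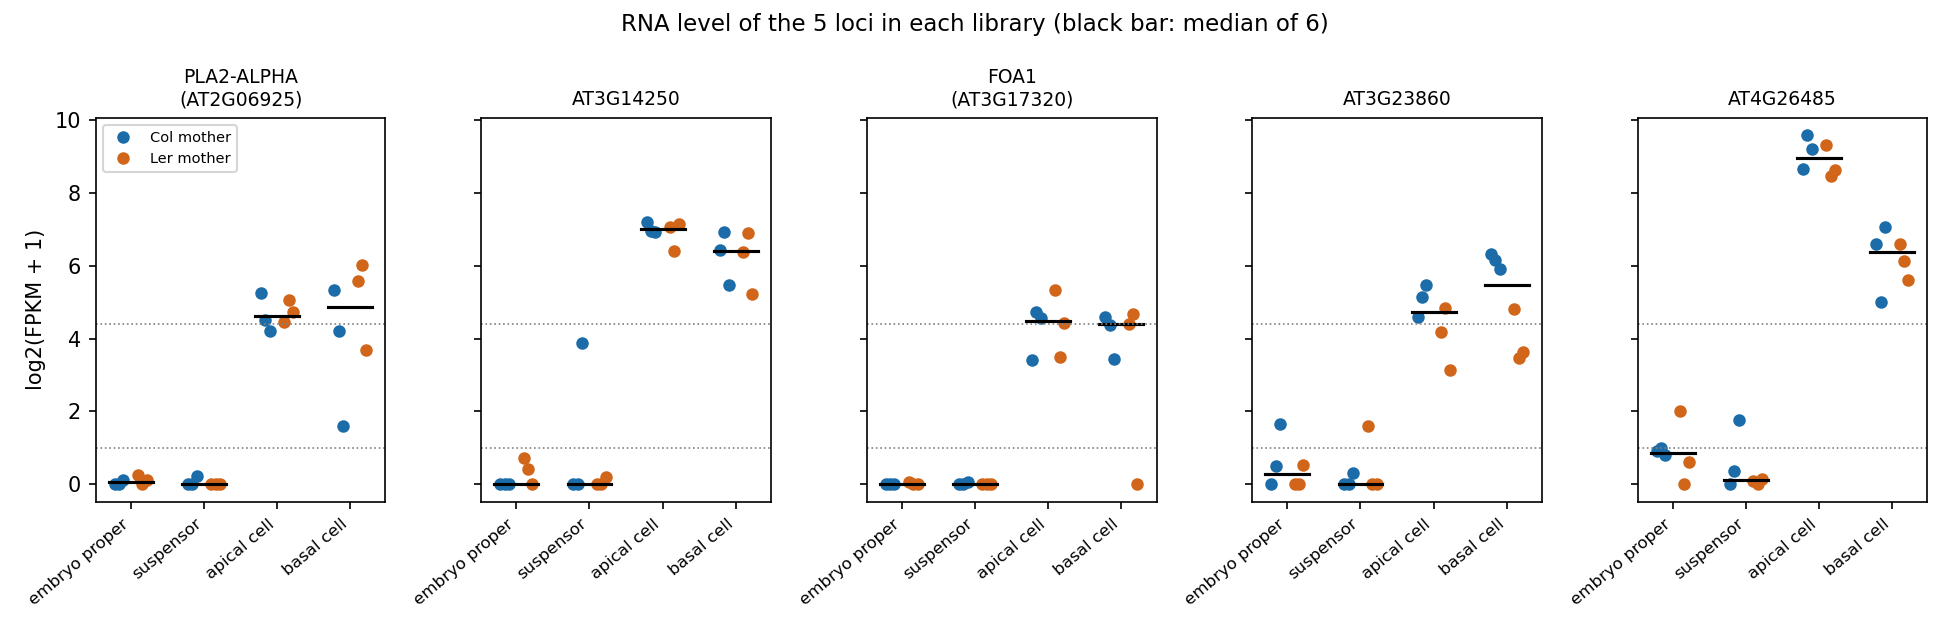
Level of each of the 5 loci on the log2(FPKM + 1) scale (vertical axis) in the embryo proper, suspensor, apical cell and basal cell, with 1 point per library coloured by mother and a bar at the median of 6 libraries. Dotted lines mark 20 and 1 FPKM. Of the 60 points at 32 cells 6 reach 1 FPKM, the highest a suspensor library at 13.7 FPKM in AT3G14250, and AT4G26485 stands higher in the apical cell than in the basal cell.

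PLA2-ALPHA encodes one of the small secreted phospholipases A2. Its level in the embryo proper ran from 0 to 0.18 FPKM with a median of 0.04, and in the suspensor from 0 to 0.17 with a median of 0. Apical cell libraries held 37.4, 22.0 and 17.6 FPKM with a Col mother and 20.8, 32.8 and 25.7 with a Ler mother. Basal cell libraries held 39.4, 17.7 and 2.05 FPKM with a Col mother and 46.8, 64.4 and 11.8 with a Ler mother. The basal cell libraries thus spread far more than the apical ones, with a coefficient of variation of 78.2% against 29.3% in the apical cell. The median ranked 5708 from the highest of all loci in the apical cell and 5012 in the basal cell, within the top 17.6% and 15.5% of loci.

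AT3G14250 encodes a protein of the RING/U-box superfamily, whose annotation names a zinc finger of the C6HC type. It was listed at 0 in 8 of 12 libraries of 32 cells, and its level ran from 0 to 0.66 FPKM in the embryo proper and from 0 to 13.7 in the suspensor. Apical cell libraries held 145.6, 122.4 and 120.6 FPKM with a Col mother and 132.8, 84.8 and 142.4 with a Ler mother. Basal cell libraries held 86.0, 121.7 and 43.7 FPKM with a Col mother and 83.3, 118.9 and 36.4 with a Ler mother. Each of the 12 daughter cell libraries thus lay above the suspensor library at 13.7 FPKM, which is Col replicate 3. Among the 5 loci it had the narrowest spread in the apical cell, where the coefficient of variation was 17.7%.

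FOA1 encodes an F-box protein whose full name in the gene table ties it to abscisic acid signalling. It was listed at 0 in 10 of 12 libraries of 32 cells and reached 0.04 FPKM in the others. Apical cell libraries held 9.66, 25.7 and 22.7 FPKM with a Col mother and 39.1, 10.3 and 20.4 with a Ler mother. Basal cell libraries held 23.3, 19.7 and 9.77 FPKM with a Col mother and 20.4, 24.4 and 0 with a Ler mother. It is the locus closest to the threshold, with medians of 21.6 FPKM in the apical cell and 20.03 in the basal cell, and 5 of its 12 daughter cell libraries were under 20. Rescaled to TPM, or by median ratios, it no longer met the thresholds.

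AT3G23860 is annotated as GTP-binding protein-like, with a nucleolar GTP-binding protein, AT1G10300, as its best match. Embryo proper libraries ran from 0 to 2.16 FPKM with a median of 0.21, and suspensor libraries from 0 to 2.03 with a median of 0. Apical cell libraries held 23.4, 34.2 and 43.3 FPKM with a Col mother and 17.2, 27.97 and 7.88 with a Ler mother. Basal cell libraries held 78.8, 70.9 and 59.2 FPKM with a Col mother and 27.2, 10.1 and 11.3 with a Ler mother. All 3 basal cell libraries with a Col mother were higher than any with a Ler mother, while in the apical cell the crosses overlapped.

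AT4G26485 had the highest level of the 5 in the apical cell. Embryo proper libraries ran from 0 to 3.07 FPKM with a median of 0.805, close under the threshold of 1, and suspensor libraries from 0 to 2.38 with a median of 0.08. Apical cell libraries held 402.2, 776.1 and 591.2 FPKM with a Col mother and 640.6, 356.1 and 399.1 with a Ler mother. Basal cell libraries held 96.0, 31.1 and 133.2 FPKM with a Col mother and 95.5, 69.2 and 48.4 with a Ler mother. The lowest apical cell library was therefore above the highest basal cell library. In the apical cell its median ranked 324 from the highest of 32399 loci, the top 1.0%, and in the basal cell 2071.

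The combination of levels was rare. A median of at least 20 FPKM in both daughters was found at 5368 loci, of which 3772 (70.3%) also reached 20 in both the embryo proper and the suspensor and 5270 (98.2%) reached 1 in both. In the embryo proper 27 of the 5368 had a median under 1, and 76 did in the suspensor. The loci that were under 1 in both are the 5 described here, of which 3 (AT3G14250, AT3G23860 and AT4G26485) still met the thresholds without basal cell Col replicate 1. Leaving out basal cell Ler replicate 1 or 2 also left 3 loci. For comparison, 1 locus reached 20 FPKM in the apical cell alone and 16 did in the basal cell alone, with medians under 1 in the other cell types.

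**Figure D2:**
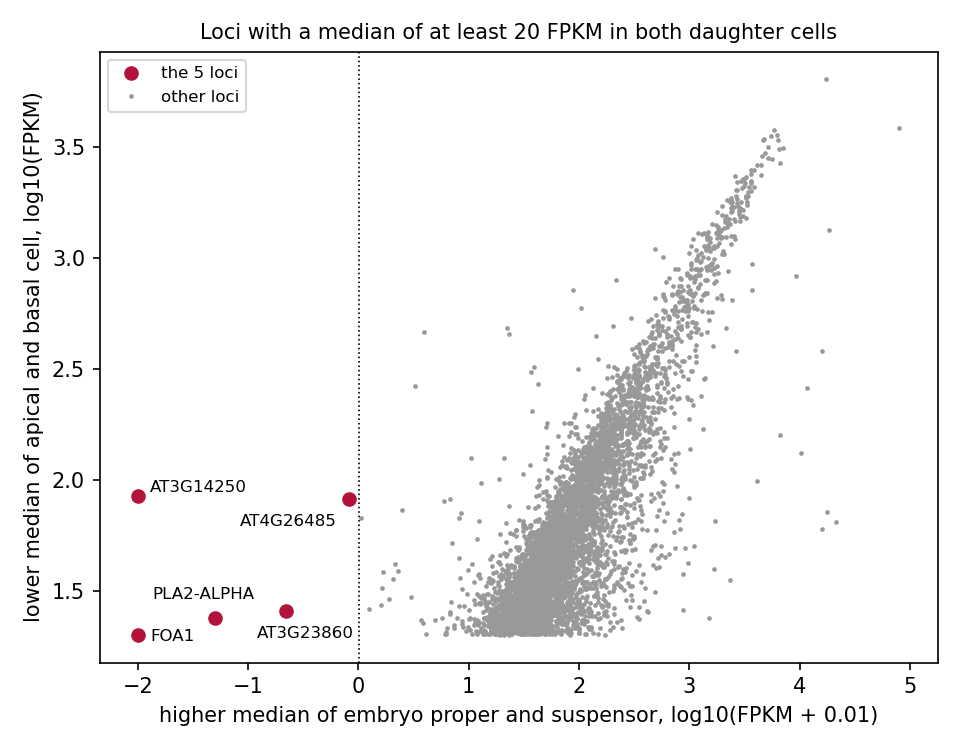
Each point is a locus with a median of at least 20 FPKM in both daughters, with the higher of its embryo proper and suspensor medians on the horizontal axis, log10(FPKM + 0.01), and the lower of its apical and basal cell medians on the vertical axis, log10(FPKM). The 5 loci lie left of the dotted line at 1 FPKM, and AT4G26485 is the nearest to it.

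Loci just outside a threshold have like values. AT1G26515, another F-box gene, was at 19.2 FPKM in the apical cell and 23.3 in the basal cell, AT3G55590 at 19.0 and 23.1, and AT4G39753 at 13.7 and 26.0. On the basal side AT5G54150 stood at 14.9, AT2G05420, a TRAF-like gene, at 14.6 and AT2G05400 at 13.7 FPKM, against 57.4 to 65.0 in the apical cell for these 3. VHA-E3, a subunit of the proton pump of the vacuole, was kept out by 1.05 FPKM in the embryo proper, and AT4G33110 and AT5G53670 by 1.61 each. In the suspensor NF-YC7, a nuclear factor Y subunit, was at 1.25 FPKM, SMAP2 at 3.88 and J11 at 7.41. Just inside stood FOA1 at 20.03 FPKM in the basal cell and AT4G26485 at 0.805 FPKM in the embryo proper.

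Within each cross, over 3 libraries a group, the same thresholds found other sets. With a Col mother 8 loci met them, among them AT3G14250, AT3G23860 and AT4G26485. With a Ler mother 7 did, among them PLA2-ALPHA, AT3G14250, FOA1 and AT4G26485. AT3G14250 and AT4G26485 met the thresholds in both directions of the cross.

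Apical and basal cell were compared next, to ask whether the level of these loci differed between the daughters. FPKM is scaled to the fragments of each library, so it does not give the amount of RNA in each cell. AT4G26485 was higher in the apical cell, with 527.6 ± 167.5 FPKM against 78.9 ± 36.9 in the basal cell (SD, n = 6 each). The difference on the log2(FPKM + 1) scale was 2.82 (SE 0.39, limma, adjusted p = 1.41e-05). It was 2.93 with a Col mother (limma, adjusted p = 0.000944) and 2.70 with a Ler mother (adjusted p = 0.00176). AT4G26485 was the single call among the 5 loci, 1 of 5, where limma called 24% of the 18206 loci tested in either direction, so the share is near the background. The choice of loci asked for 20 FPKM in each daughter, so a locus low in either could not be among them. All 5 were among the loci tested, which needed 1 FPKM in at least 3 libraries.

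The other 4 loci had differences whose 95% intervals included 0, and they were not shown to be alike. PLA2-ALPHA averaged 26.0 ± 7.62 FPKM in the apical cell and 30.3 ± 23.7 in the basal cell (SD, n = 6 each), with a log2 difference of 0.30 (95% interval -0.71 to 1.31). The means thus put the basal cell higher and the log2 scale the apical cell, and without basal cell Col replicate 3, at 2.05 FPKM, the log2 difference was -0.23. For AT3G14250 the averages were 124.8 ± 22.0 FPKM in the apical cell and 81.7 ± 36.1 in the basal cell, with a log2 difference of 0.72 (-0.31 to 1.75). FOA1 averaged 21.3 ± 10.9 FPKM in the apical cell and 16.2 ± 9.49 in the basal cell, with a log2 difference of 0.75 (-0.44 to 1.93). AT3G23860 averaged 25.7 ± 12.5 FPKM in the apical cell and 42.9 ± 30.5 in the basal cell, with a log2 difference of -0.48 (-1.32 to 0.35). Limma's adjusted p for these 4 ran from 0.318 to 0.71. The median difference of the 5, which is that of AT3G14250, was 0.72 on the log2 scale, against 0.03 over all loci tested. Whether the 5 differ as a set from the other loci was not tested.

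**Figure D3:**
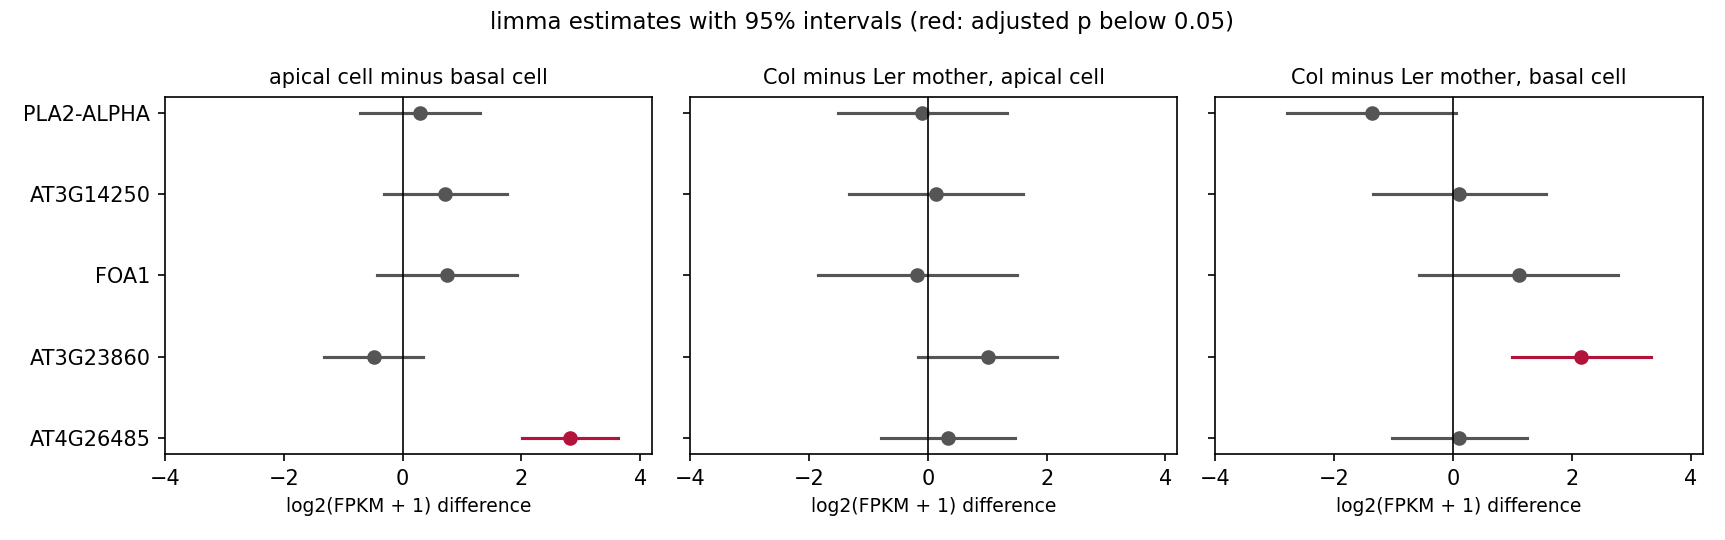
Difference on the log2(FPKM + 1) scale (horizontal axis) for each of the 5 loci, with 95% intervals from limma, for the apical minus the basal cell and for Col minus Ler mothers in each daughter. AT4G26485 at 2.82 in the left panel and AT3G23860 at 2.16 in the right panel have an adjusted p below 0.05.

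The crosses were then compared in each daughter. In the basal cell AT3G23860 averaged 69.6 ± 9.88 FPKM with a Col mother and 16.2 ± 9.56 with a Ler mother (SD, n = 3 each). The log2 difference was 2.16 (SE 0.57, limma, adjusted p = 0.0227). It was the only one of the 5 called there, where 7.06% of tested loci were called. Averaged over both daughters its difference was 1.58 (SE 0.40, limma, adjusted p = 0.0293), again the only call of the 5, against 3.64% of tested loci. Both calls are lost without the 4 libraries whose labels allow another library kit. The log2 difference was then 1.42 in the basal cell and 1.21 over both daughters. Of those 4 libraries 3 are basal cell ones: Ler replicates 2 and 3 and Col replicate 3. That fit thus keeps only replicate 1 of the basal cell with a Ler mother. Both calls held with the kit wording as a covariate. There limma's adjusted p was 0.0331 in the basal cell and 0.036 over both daughters. The basal cell call is also lost without Col replicate 1, Col replicate 2, Ler replicate 2 or Ler replicate 3 of the basal cell, at adjusted p of 0.0747, 0.0696, 0.115 and 0.0622 by limma. The call over both daughters is lost without any of 8 of the 12 daughter cell libraries (adjusted p of 0.0503 to 0.0801), and a pseudocount of 0.1 ends both calls.

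Marker sums of the same basal cell libraries separated by cross for some lists and not for others. The crosses overlapped for the apical cell, embryo proper, endosperm, seed coat, pollen tube and synergid lists. The egg cell list summed to 40.2 to 72.4 FPKM with a Col mother and 112.2 to 244.8 with a Ler mother, and the list of all embryo cells to 393.8 to 600.1 with a Col mother and 685.8 to 885.8 with a Ler mother. The basal lineage list summed to 534.7 to 573.4 FPKM with a Col mother and 651.8 to 693.2 with a Ler mother, and the sperm cell list to 9.79 at most with a Col mother and 15.3 or more with a Ler mother. The central cell list went the other way, with every Col library above the highest Ler library, at 2.77 FPKM. Their part in the cross difference of AT3G23860 was not tested.

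In the apical cell no cross difference was called for the 5 loci, nor was any under an unadjusted p of 0.05, by limma, which called 0.428% of tested loci there. AT3G23860 averaged 33.6 ± 9.97 FPKM with a Col mother and 17.7 ± 10.1 with a Ler mother (SD, n = 3 each), a log2 difference of 1.01 (95% interval -0.17 to 2.18, limma, adjusted p = 0.801). The difference between its cross effects in the apical and the basal cell was -1.16 (limma, adjusted p = 0.593), so the effect was not shown to belong to the basal cell. None of the 5 was called in that test, nor under an unadjusted p of 0.05, and limma called 1.25% of tested loci.

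PLA2-ALPHA went the other way in the basal cell, where it averaged 19.7 ± 18.8 FPKM with a Col mother and 41.0 ± 26.7 with a Ler mother (SD, n = 3 each). Its log2 difference of -1.37 was not called (95% interval -2.80 to 0.05, limma, adjusted p = 0.247). The basal cell differences of AT3G14250, FOA1 and AT4G26485 were 0.11, 1.11 and 0.11 on the log2 scale, each with an interval that included 0. AT3G14250 averaged 83.8 ± 39.1 FPKM with a Col mother and 79.5 ± 41.4 with a Ler mother in that cell type.

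AT3G23860 shares bases with another gene. AT3G23870, which codes for a magnesium transporter of the NIPA type, lies on the plus strand and overlaps it by 94 bases. The kit is not stated to keep strand, so reads from the shared bases cannot be assigned to a strand. Of the 3 annotated transcripts of AT3G23860, 1 starts at the gene start and the others start 1545 and 1640 bases further on, outside the overlap.

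The pair had like order in some cell types and not in others. AT3G23870 had medians of 0.835 FPKM in the embryo proper, 72.7 in the suspensor, 30.6 in the apical cell and 74.7 in the basal cell, so that it was high in the suspensor where AT3G23860 was listed at 0 in 4 of 6 libraries. In the apical cell AT3G23870 held 20.7, 16.6 and 9.36 FPKM with a Col mother and 45.7, 40.5 and 43.05 with a Ler mother. In the basal cell it held 72.9, 56.0 and 53.1 FPKM with a Col mother and 76.5, 104.1 and 80.2 with a Ler mother. Between crosses the directions were opposite, since every Col library of AT3G23870 was below every Ler library in each daughter. Its cross difference over both daughters was -0.99 on the log2 scale (SE 0.26, limma, adjusted p = 0.0361), and in the basal cell -0.51 (adjusted p = 0.469). Between the daughters the signs were the same: AT3G23870 had an apical minus basal difference of -1.47 (SE 0.26, limma, adjusted p = 0.000278), beside -0.48 for AT3G23860. Embryo proper Col replicate 3 was the highest embryo proper library for both, at 2.16 FPKM for AT3G23860 and 3.09 for AT3G23870. The part of shared reads in these values was not tested.

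**Figure D4:**
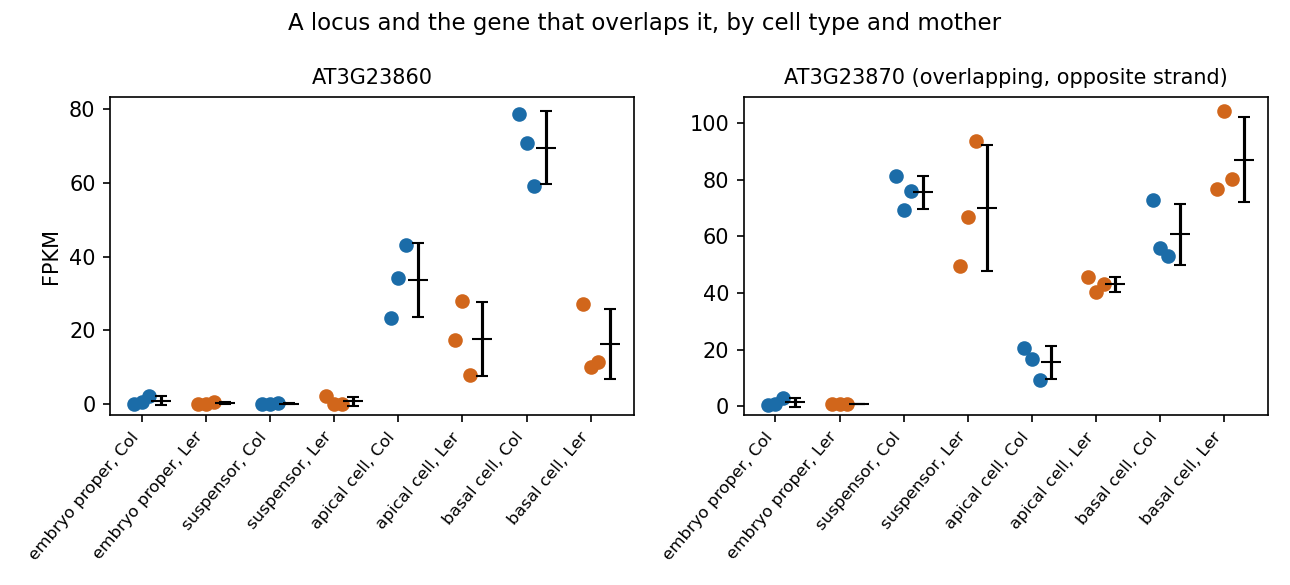
FPKM (vertical axis) of AT3G23860 and of AT3G23870, which overlaps it on the opposite strand, in the 8 groups, with a point per library coloured by mother and the mean ± SD of 3 libraries in black. AT3G23860 is higher with a Col mother in the basal cell (69.6 against 16.2 FPKM), and AT3G23870 is high in the suspensor as well.

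Relatives of the 5 loci had varied levels. Of the 3 other loci with the product name of PLA2-ALPHA, AT4G29070 was present throughout, with medians of 43.6 FPKM in the embryo proper, 259.7 in the suspensor, 100.5 in the apical cell and 38.3 in the basal cell. PLA2-GAMMA and PLA2-DELTA, 2 further secreted phospholipases A2, had a median of 0 in every cell type. AT3G53690, the best match of AT3G14250 in the annotation, was also lower at 32 cells, with medians of 4.12 and 10.3 FPKM in embryo proper and suspensor and 39.6 and 20.9 FPKM in apical and basal cell. The product name of AT3G14250 is shared by 293 listed loci, 40 of the others with a median of at least 20 FPKM in both daughters. AT1G55790, the best match of AT4G26485, shared its order of the daughters at a lower level, with medians of 1.84 FPKM in the embryo proper, 0 in the suspensor, 11.4 in the apical cell and 1.34 in the basal cell.

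AT1G10300, the best match of AT3G23860, had medians of 3.69 FPKM in the embryo proper, 0.01 in the suspensor, 1.25 in the apical cell and 1.32 in the basal cell. The other loci of the product name of AT3G23860 are AT1G56050, with medians of 26.0, 1.76, 22.1 and 28.8 FPKM in embryo proper, suspensor, apical cell and basal cell, and AT4G39520, with 111.5, 63.8, 142.6 and 110.3 FPKM. The name of FOA1 is shared by 153 listed loci, and of the other 152 there were 116 with a median under 1 FPKM in all 4 cell types and 1 with a median of at least 20 in both daughters. The closest full-length relative of FOA1 by blastn is AT3G16740, with 71.3% identity over 99.3% of its length and medians of 9.95, 2.58, 13.3 and 14.4 FPKM in embryo proper, suspensor, apical cell and basal cell. No locus reached 95% identity to any of the 5.

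Flanking genes were silent at some of the loci and present at others. Low levels were common, since 16402 of all 32399 listed loci had a median under 1 FPKM in both cell types of 32 cells. Beside AT3G23860 and its overlapping gene, AT3G23840 had medians of 1.02 FPKM in the basal cell and 0.35 or less elsewhere. AT3G23880, on the other side, was at 0.215 FPKM or less. The protein-coding loci on both sides of PLA2-ALPHA had a median of 0 FPKM in each cell type, and those beside AT4G26485 were at 0.21 FPKM or less. Beside AT3G14250 stood AT3G14240, a subtilase, with medians of 12.4 FPKM in the embryo proper, 0.02 in the suspensor, 2.59 in the apical cell and 2.87 in the basal cell, and AT3G14260, at 0 throughout. FOA1 lies between DRM3 and ECT6, a relative of DNA methyltransferases and a reader of RNA methylation, which were present in all 4 cell types at medians of 10.4 to 26.1 FPKM.

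The marker lists marked the labelled cell types unevenly. ZPR3, a little zipper gene of the embryo proper, had a mean of 235.9 FPKM there against 0.0267 in the suspensor and at 0 in both daughters. The 5 embryo proper markers summed to 4193.6 to 5820.2 FPKM there, but also to 532.9 to 2250.3 in suspensor libraries, where 3 of the 5 had a median of at least 20. PDF1 held most of these sums on average, with means of 4614.4 FPKM in the embryo proper and 1155.9 in the suspensor. In the suspensor ATML1 averaged 33.3 FPKM and ARF5 41.0, and TMO5 was at 0. DRN, a factor of the apical lineage, averaged 54.9 FPKM in the apical cell and 2.54 in the basal cell. WOX2 averaged 166.4 FPKM in the apical cell and 94.4 in the basal cell, HAN 184.0 and 30.7 in the same order, and DRNL was at 0 in both. The 4 apical markers summed to 272.2 to 577.7 FPKM in apical cell libraries and 86.2 to 180.2 in basal cell libraries. The 4 markers of the basal lineage summed to 28.1 to 111.9 FPKM in apical cell libraries and 534.7 to 693.2 in basal cell libraries. Libraries held 12611 to 15366 loci at 1 FPKM or more, the share of summed FPKM in the top 10 loci was 16.1 to 26.3% in the suspensor and 4.32 to 6.73% elsewhere, and no 2 libraries were identical.

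Markers of other cells also differed between the cell types. The 9 egg cell genes checked summed to 4.07 to 11.8 FPKM in embryo proper libraries, 0 to 19.7 in suspensor, 50.9 to 126.1 in apical cell and 40.2 to 244.8 in basal cell libraries. Medians of at least 1 FPKM were reached by 2, 0, 3 and 2 of the 9 in those cell types. EC1.5 averaged 38.9 FPKM in apical and 92.9 in basal cell libraries. EC1.1, EC1.2, EC1.3 and EC1.4 also had higher means in the basal cell, at 4.53 FPKM or less. RKD2 and RKD1 went the other way, at 34.1 and 13.5 FPKM in apical and 5.87 and 0 in basal cell libraries. SBT4.13 was at 0 in all libraries. The 5 pollen tube genes summed to 0.09 to 3.0 FPKM in embryo proper, 0 to 61.4 in suspensor, 0.25 to 174.9 in apical cell and 0 to 30.9 in basal cell libraries. The 10 seed coat genes summed to 12.6 to 27.5 FPKM in embryo proper and 2.72 to 47.2 in suspensor libraries. They summed to 0 to 1.56 FPKM in apical cell and 0 to 32.0 in basal cell libraries. In the basal cell TT3 and TT4 were the only ones with a median of at least 1. The 10 endosperm genes summed to 0.06 to 2.34 FPKM in embryo proper and 0.92 to 30.5 in suspensor libraries. They summed to 0.05 to 2.59 FPKM in the apical cell and 0 to 18.7 in the basal cell, with AGL62 alone at a median of at least 1. Within the endosperm and seed coat lists PHE1, ZOU, AGL36, AGL90, TT10 and TT16 were at 0 in every library, while others were detected. AGL62 reached 30.5 FPKM in a suspensor library and 13.6 in a basal cell library. TT4 reached 26.2 FPKM in the suspensor, TT3 18.2 in the basal cell and STK 27.5 in the embryo proper. The part of these cells in the stage difference and in the apical difference of AT4G26485 was not tested.

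Low values rest on few fragments. The depth of a library was estimated at 17.8 to 32.4 M fragments from its low values and the lengths of its loci, and in the libraries of 32 cells 1 FPKM stands for about 7.65 to 27.7 fragments at these 5 loci. A value of 0 at 32 cells therefore means that the locus was not detected at this depth.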

How the data were processed

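RNA was measured in 24 libraries, 3 in each of 8 groups, taken from the titles and cross labels. The authors deposited FPKM values, 1 per locus and library; TopHat2 2.1.1, RSEM and the TAIR10 genome are named per the submitters' processing notes, without a role. The loci and lists were chosen with earlier results of these data known. Loci with at least 1 FPKM in at least 3 libraries, 18206 in all, were tested as log2(FPKM + 1) with limma 3.58.1 in R 4.3.3 (8 group means in 1 fit, a mean-variance trend, two-sided, Benjamini-Hochberg over all loci tested, threshold 0.05). This scale understates changes of low loci. The model was also run on simulated data with normal noise of the same spread for all loci of a group. Real loci differ in spread, and no result here rests on that run. All 5 loci were named and given for every library, as the rule asked for 40 or fewer members.

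Gene names, products and coordinates come from RefSeq TAIR10.1, which holds 31912 of the 32399 loci. Relatives were sought with blastn 2.17.0 at 70% identity or more over at least 30% of the length, a rule chosen after the loci were known. Listed loci of a shared product name and best matches named in the annotation were added after their values could be seen. The depth estimate multiplies low FPKM values by exon length less an assumed fragment length of 200 bases and is approximate. The commonest product was sought within a set range, which bounds the estimate. The share of values near it ran from 23.4% in apical cell Col replicate 1 to 64.5% in suspensor Col replicate 1. Of the marker lists, 7 genes were dropped because the gene table does not give their ID the symbol of the list. For ECS1, ECS2, DMP8 and BUPS1 it gives no gene symbol. HTR10, DMP9 and RALF19 stand there as MGH3, DAU2 and RALFL19. A dropped gene is thus not shown to have a wrong ID. Tables were made in Python 3.11.15 with pandas 2.3.3. Replicate numbers were not taken as pairs, as the closing section describes.

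Alternatives were other pseudocounts (0.1 and 5), other filters (none, or 5 FPKM), TPM, quantile and median-ratio scaling, library weights, the kit wording as a term or its 4 libraries left out, a replicate block, no trend, a fit of 2-celled libraries, 1 cross at a time and each library left out. Protein sequences were not used here.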

Additional observations from a re-analysis of the deposited data

Results flagged for a closer look

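In 8 of the 20 groups formed by the 5 loci and 4 cell types, 1 of 6 libraries stood apart by Dixon's test. Chance alone sets apart about 1 in 20 groups, and in groups with most values at 0 any trace is enough. All 8 are at 32 cells. Suspensor Col replicate 3 was the highest suspensor library for PLA2-ALPHA at 0.17 FPKM, for FOA1 at 0.04 and for AT4G26485 at 2.38. It was also the highest for AT3G14250, at 13.74 FPKM. Its summed levels of seed coat, endosperm and egg cell markers were 2.72, 7.91 and 1.9 FPKM, within the range of the other suspensor libraries except for the seed coat sum, which was the lowest. Suspensor Ler replicate 1 stood apart for AT3G23860 at 2.03 FPKM. In the embryo proper Ler replicate 1 stood apart for FOA1 at 0.04 FPKM and for AT4G26485 at 3.07, and Col replicate 3 for AT3G23860 at 2.16 FPKM. Leaving out suspensor Col replicate 3 kept all 5 loci and added NF-YC7.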

How the results depend on the processing

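The call of AT4G26485 between apical and basal cell held under every alternative run, with log2 differences of 2.51 to 3.03 when a 2-celled library was left out. The number of loci that meet the thresholds was 3 with the mean in place of the median, 38 with a floor of 10 and a ceiling of 2, 1 (AT3G14250) with a floor of 40 and a ceiling of 0.5, and 3 to 7 with a library left out. It was 3 without basal cell Col replicate 1, basal cell Ler replicate 1 or basal cell Ler replicate 2. With the mean, 2 of the 5 loci were kept, PLA2-ALPHA and AT3G23860. FOA1 dropped out under TPM, where NF-YC7 came in for 5 loci in all, and under median-ratio scaling, which left 4.

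The call of AT3G23860 between crosses in the basal cell was lost with a pseudocount of 0.1, leaving 0 of the 5 (limma, adjusted p = 0.291, log2 difference 2.24). It was also lost without the 4 libraries of other kit wording, at 1.42, where only Ler replicate 1 is left for that cross. Its call over both daughters was lost likewise (limma, adjusted p = 0.326 at 1.65, and a difference of 1.21 without the 4). Both calls held with the kit wording as a covariate (limma, adjusted p = 0.0331 and 0.036) and with a pseudocount of 5 (0.00144 and 0.00204). The 5 loci had 0 to 1 calls in the basal cell and 0 to 1 over both daughters when a library was left out, and AT3G23860 kept its direction, at 1.91 to 2.59 and 1.36 to 1.80 on the log2 scale. Over both daughters its call was lost without 8 of the 12 libraries, at adjusted p of 0.0503 to 0.0801. The 8 are apical cell Ler replicates 1 and 3 and Col replicates 2 and 3, and basal cell Col replicates 1 and 2 and Ler replicates 2 and 3. Library weights gave 2 calls in the basal cell, adding PLA2-ALPHA at -1.44 (adjusted p = 0.0404). The cause was not tested.

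Some differences that were not called changed sign. PLA2-ALPHA between apical and basal cell was at -0.33 with library weights, -0.35 with the kit wording as a covariate, -0.47 without the 4 libraries and -0.34 within the Ler mother. Its cross difference in the apical cell was 0.05 with quantile normalization and 0.01 with median-ratio scaling. AT3G14250 in the basal cell was at -0.06 with weights and -0.07 with the covariate, and its difference of cross effects at -0.15 without the 4 libraries. FOA1 without those libraries was at -0.12 between apical and basal cell and -0.05 between crosses over both daughters. AT4G26485 between crosses was at -0.35 in the basal cell and -0.01 over both daughters with weights, and at -0.79 and -0.23 without the 4 libraries. AT3G23860 between apical and basal cell was at 0.09 within the Ler mother. With a library left out, values ran from -0.23 to 0.70 for PLA2-ALPHA and -0.01 to 1.16 for FOA1 between apical and basal cell. Between crosses in the apical cell they ran from -0.38 to 0.14 for PLA2-ALPHA, -0.09 to 0.28 for AT3G14250 and -0.63 to 0.28 for FOA1. In the basal cell they ran from -0.36 to 0.51 for AT3G14250, -0.41 to 1.92 for FOA1 and -0.32 to 0.72 for AT4G26485. Over both daughters they ran from -0.11 to 0.33 for AT3G14250 and -0.29 to 0.87 for FOA1. For the difference of cross effects they ran from -0.38 to 0.50 for AT3G14250, -2.10 to 0.23 for FOA1 and -0.38 to 0.66 for AT4G26485.

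With the replicate number as a block, the 5 loci again had 1 call between apical and basal cell, 1 between crosses in the basal cell and 1 over both daughters. Libraries of the same number did not deviate together: correlations of their deviations ran from -0.178 to 0.049 over 12 pairs, against -0.126 to 0.264 over 24 pairs of other numbers, so the numbers do not pair the libraries. The deposited values hold no fragment counts, and levels near 1 FPKM rest on few fragments.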
